A study of Mus musculus with 4 samples.

Results

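The cytosolic ribosomal proteins form, with the ribosomal RNAs, the particle that makes all nuclear-encoded proteins. Their genes were taken by symbol: Rpl or Rps followed by a number, with the suffixes used for paralogues, together with Rplp0, Rplp1, Rplp2 and Rpsa, and without symbols holding -ps and without the Rps6k kinases. This gave 84 of the 13834 genes in the table. Of these, 46 encode proteins of the large subunit, 3 encode the stalk of the large subunit and 32 encode proteins of the small subunit. The other 3 are annotated in GENCODE M21 as copies rather than coding genes, Rps12l1 and Rps3a2 as processed pseudogenes and Rps4l as a transcribed processed pseudogene. All 84 passed the filter on low counts. RNA was sequenced from peritoneal macrophages of 10-week-old mice in which Dnmt1, the maintenance DNA methyltransferase, is floxed. In 2 samples, called Dnmt1fl/fl, the gene was intact, and in the other 2, called Dnmt1KO, the mice also expressed Cre recombinase from the LysM promoter, which is active in myeloid cells, so that the deletion is directed to that lineage and other cells keep the floxed gene. All mice had received thioglycolate broth in the abdominal cavity 3 days before lavage. The lavaged cells were spun down and cultured with no sort described, the labels name no further treatment, and no source used here says whether a sample came from 1 mouse or from several.

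A ribosome has a small subunit, which reads the messenger RNA, and a large subunit, which joins the amino acids. Most ribosomal proteins are present once per particle, so cells keep the output of their genes close to balance, and surplus protein is degraded. The messenger RNAs are short and abundant, and most begin with a tract of pyrimidines, the 5′ TOP element, through which mTORC1 and LARP1 control their translation together. In macrophages the ribosomal protein Rpl13a has a further role, since interferon-gamma releases it from the ribosome to silence inflammatory messages.

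The pyrimidine tract is the sequence feature that these genes are best known to share, and the windows below are shown because they cover genes with large and small differences between libraries, the mTORC1 target Rps6 and Rpl7a, whose genotypes did not overlap. Each runs from 15 bases before to 15 bases after the RefSeq transcript start on GRCm38.p6, and capitals mark the longest run of C or T of at least 5 bases.

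Rplp2 (chr7:141447636-141447665, plus strand): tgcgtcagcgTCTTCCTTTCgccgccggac

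Rpl38 (chr11:114668565-114668594, plus strand): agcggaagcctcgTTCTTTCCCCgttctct

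Rpl28 (chr7:4792950-4792979, plus strand): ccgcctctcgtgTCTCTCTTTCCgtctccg

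Rps6 (chr4:86857353-86857382, minus strand): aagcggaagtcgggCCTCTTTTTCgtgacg

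Rpl7a (chr2:26910792-26910821, plus strand): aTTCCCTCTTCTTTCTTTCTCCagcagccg

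Rps27 (chr3:90213634-90213663, minus strand): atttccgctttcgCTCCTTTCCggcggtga

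Rpl12 (chr2:32961697-32961726, plus strand): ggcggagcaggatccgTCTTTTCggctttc

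Rpl41 (chr10:128549154-128549183, minus strand): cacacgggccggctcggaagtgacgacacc

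Rplp2, Rpl38 and Rpl28 have some of the largest log2 fold changes among the genes, and Rps27 and Rpl12 some of the smallest, and all 5 windows hold a run. Rpl41 also had one of the largest log2 fold changes, and its window at the annotated start holds no such run. The same holds for Rps28, with a log2 fold change of 0.44, whose window is not shown. Of the 84 genes, 61 have an entry in the RefSeq promoter table, which gives 250 bases before to 50 bases after each start. A C followed by 5 or more C or T, within 15 bases of a start and on the sense strand, was found in 35 of the 61 (57.4%) and in 25.5% of the 27025 genes in that table. On the sense strand of the whole 300-base window, CTCTTT was found in 37.7% of the 61 and in 13.7% of all genes, and CTTTCC, which can overlap it, in 41.0% and 16.0%. On either strand, CCGGAAG, the core recognised by ETS factors, was found in 41.0% of the 61 and in 9.93% of all genes. AAGATGGCG, the core recognised by YY1, was found on either strand in 6.56% and 1.64%. TATAAA was found in 11.5% of the 61 and in 15.7% of all genes, and CACGTG, the E-box, in 9.84% and 8.09%, both counted on either strand. These matches describe the letters in the windows, and annotated starts can lie some distance from the starts the cells use.

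The 4 libraries held 20228071 and 24198943 counts in Dnmt1fl/fl replicates 1 and 2, and 21767795 and 22611219 counts in Dnmt1KO replicates 1 and 2. Dnmt1 itself was at 86.6 and 67.0 CPM, the count scaled to the size of its library with TMM, in Dnmt1fl/fl and at 37.0 and 42.7 CPM in Dnmt1KO, a log2 fold change of -0.95 (SE 0.24) with an adjusted p of 1.00 in edgeR. One library stood apart. Across genes, the correlation of log2 CPM between Dnmt1KO replicate 1 and the other 3 libraries was 0.946 to 0.970, and among those 3 it was 0.981 to 0.989. Of the macrophage markers, 8 of 8 were measured. Without Lyz2 they summed to 5980.3 and 6002 CPM in Dnmt1fl/fl and to 6555 and 5741 CPM in Dnmt1KO. Lyz2, the locus from which LysM-Cre is expressed, was at 29531 and 28587 CPM in Dnmt1fl/fl and at 11351 and 15745 CPM in Dnmt1KO, a log2 fold change of -1.10 with an adjusted p of 1.00 in edgeR. The 6 neutrophil markers tested summed to 194 and 261 CPM in Dnmt1fl/fl, and to 756 CPM in Dnmt1KO replicate 1 and 194 CPM in Dnmt1KO replicate 2, and all 6 were highest in Dnmt1KO replicate 1. The 6 B cell markers summed to 390 and 527 CPM in Dnmt1fl/fl, 182 CPM in Dnmt1KO replicate 1 and 591 CPM in Dnmt1KO replicate 2, with 5 of 6 lowest in Dnmt1KO replicate 1. All 5 dendritic cell markers were lowest in Dnmt1KO replicate 1, with a sum of 18.4 CPM against 32.1 to 43.4 CPM in the other libraries. All 5 mesothelial markers were highest there, with a sum of 13.2 CPM against 4.66 to 7.61 CPM. Sums over T cell (6 of 6), mast cell (5 of 5) and eosinophil markers (3 of 5) were between 7.67 and 21.8 CPM in every library. No marker that was measured was at 0, since every gene in the table has a value above 0 in all 4 samples. In such bulk samples a smaller share of a cell type and less of an RNA per cell cannot be told apart.

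The comparison of Dnmt1KO with Dnmt1fl/fl asks how loss of Dnmt1 bears on the macrophage transcriptome. None of the 84 ribosomal protein genes passed edgeR's quasi-likelihood test at an adjusted p of 0.05 or at an unadjusted p of 0.05. Over all 12542 genes tested, 0 (0%) passed the adjusted and 35 (0.279%) the unadjusted threshold. Of the 84 genes, DESeq2 and limma-voom also called 0 at either threshold. The log2 fold change was above 0 in 82 of 84 genes, against 50.9% of all genes tested, and the median was 0.22, against 0.0046 over all genes. At least 0.2 was reached by 49 of the 84 (21.8% of all genes) and -0.2 or less by 0 (19.7% of all genes). Standard errors of these log2 fold changes ran from 0.21 to 0.72, and the SE was larger than the size of the log2 fold change in 68 of 84.

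These positive values rested on 1 library. Dnmt1KO replicate 1 was the highest of the 4 libraries in 82 of the 84 genes, against 38.8% of all genes tested, and the exceptions were Rpl12 and Rps3a2. Relative to the Dnmt1fl/fl mean, on log2 CPM, the median of the 84 genes was 0.46 in Dnmt1KO replicate 1 and -0.0713 in Dnmt1KO replicate 2. The Dnmt1fl/fl libraries lay at -0.0742 and 0.0742 around their own mean. In Dnmt1KO replicate 2, 44 genes lay within the range of the Dnmt1fl/fl libraries, 37 lay below it and 3 above it. The median difference between the Dnmt1KO libraries was 0.52, and between the Dnmt1fl/fl libraries 0.15. Without Dnmt1KO replicate 1 the median log2 fold change of the 84 genes was -0.0769, with 14 genes above 0, and without Dnmt1KO replicate 2 it was 0.45, with 83 above 0. The sign of the genotype difference thus depended on which Dnmt1KO library was included. The neutrophil, B cell, dendritic cell and mesothelial markers given above stood apart in the same library, and their part in the result was not tested.

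**Figure D1:**
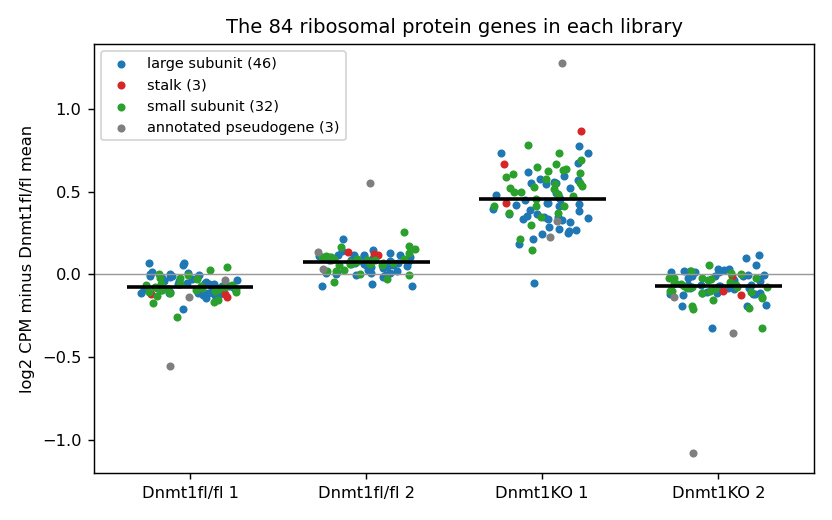
Level of each of the 84 ribosomal protein genes in each library, as log2 CPM minus the mean of the 2 Dnmt1fl/fl libraries. Points are genes, coloured by class, and black bars are medians, which lie at -0.0742, 0.0742, 0.46 and -0.0713 from left to right.

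Both Dnmt1KO libraries were above both Dnmt1fl/fl libraries in 3 of the 84 genes, against 8.14% of all genes tested, and below both in 0, against 8.56%. This count was not stable, since a correction for transcript length gave 21 genes higher and 0 lower, against 10.99% and 7.35% of all genes, and leaving out 1 sample gave 8 to 82 in either direction, the highest without Dnmt1KO replicate 2. The 3 genes were Rpl6, Rpl7a and Rpl15, all of the large subunit and chosen here after their values were seen. Rpl6 was at 701 and 709 CPM in Dnmt1fl/fl and at 896 and 719 CPM in Dnmt1KO, so that Dnmt1KO replicate 2 cleared the higher control by a small margin. Rpl7a was at 594 and 606 CPM in Dnmt1fl/fl and at 757 and 614 CPM in Dnmt1KO. Rpl15 was at 269 and 313 CPM in Dnmt1fl/fl and at 348 and 315 CPM in Dnmt1KO. Their log2 fold changes were 0.20, 0.19 and 0.19.

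As a share of the library, ribosomal protein genes accounted for 3.20% of all counts in Dnmt1fl/fl replicate 1 (95% Wilson interval 3.19% to 3.21%) and 3.56% in Dnmt1fl/fl replicate 2 (3.55% to 3.56%). They accounted for 4.13% in Dnmt1KO replicate 1 (4.12% to 4.13%) and 3.30% in Dnmt1KO replicate 2 (3.29% to 3.31%). Reads copied by PCR are not separate molecules, so these intervals hold counting error and nothing more. The mean was 3.38% ± 0.25 (SD, n = 2) in Dnmt1fl/fl and 3.71% ± 0.58 (SD, n = 2) in Dnmt1KO, a difference smaller than the SD of the Dnmt1KO samples (exact two-sided permutation test, p = 0.667). With 2 samples per genotype this test cannot give a p under 0.333. The share was lowest in Dnmt1fl/fl replicate 1, and Dnmt1KO replicate 2 lay between the Dnmt1fl/fl libraries. Without Dnmt1KO replicate 1 the difference was -0.0766 percentage points. The ratio of counts for small subunit genes to counts for large subunit genes, the stalk included, was 0.750 and 0.755 in Dnmt1fl/fl, 0.788 in Dnmt1KO replicate 1 and 0.735 in Dnmt1KO replicate 2. The ratio was highest in Dnmt1KO replicate 1 and lowest in Dnmt1KO replicate 2, and the genotypes overlapped (exact two-sided permutation test, n = 2, p = 1.00, with the same smallest possible p).

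**Figure D2:**
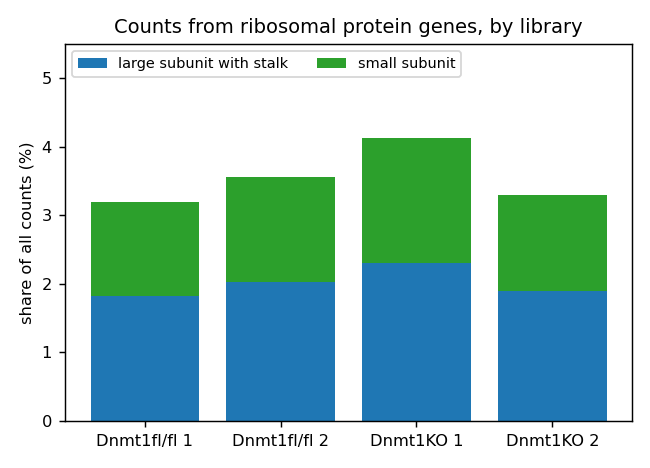
Share of all counts in each library that fell on the ribosomal protein genes, in percent, split into large subunit with stalk and small subunit. The 4 bars reach 3.20%, 3.56%, 4.13% and 3.30%.

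The stalk recruits the GTPases that drive translation. On the log2 scale, Dnmt1KO replicate 1 exceeded Dnmt1KO replicate 2 by 0.97 in Rplp2, 0.79 in Rplp1 and 0.44 in Rplp0, beside the median of 0.52 over the 84 genes. Rplp2 (chromosome 7, 141447370 to 141451585 in GENCODE M21 on GRCm38) was at 240 and 284 CPM in Dnmt1fl/fl, and at 477 CPM in Dnmt1KO replicate 1 and 243 CPM in Dnmt1KO replicate 2. Dnmt1KO replicate 1 was far above the rest and Dnmt1KO replicate 2 fell between the controls. The log2 fold change of 0.46 (SE 0.37) was the largest among coding ribosomal protein genes, with an adjusted p of 1.00 in edgeR, as for each of the 84. Rplp1, its partner in the stalk dimers, was at 519 and 612 CPM in Dnmt1fl/fl and at 897 and 518 CPM in Dnmt1KO, a log2 fold change of 0.32. Rplp0, the base that anchors the dimers, was at 903 and 1089 CPM in Dnmt1fl/fl and at 1337 and 987 CPM in Dnmt1KO, a log2 fold change of 0.22. In all 3 the genotypes overlapped.

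Among the 46 coding genes of the large subunit, log2 fold changes ran from -0.06 to 0.45 with a median of 0.19, and Dnmt1KO replicate 1 was the highest library in 45. Rpl41 (chromosome 10, 128548114 to 128549305), the smallest ribosomal protein, was at 431 and 526 CPM in Dnmt1fl/fl and at 793 and 509 CPM in Dnmt1KO, a log2 fold change of 0.45 (SE 0.30). Rpl38 (chromosome 11, 114668524 to 114672331), which is needed for translation of Hox messages in development, was at 103 and 138 CPM in Dnmt1fl/fl and at 204 and 112 CPM in Dnmt1KO, a log2 fold change of 0.39 (SE 0.35). In both genes Dnmt1KO replicate 2 lay within the range of the controls. At the other end, Rpl12 (chromosome 2, 32961559 to 32965345), a protein at the base of the stalk, was at 24.0 and 21.8 CPM in Dnmt1fl/fl and at 22.1 and 21.7 CPM in Dnmt1KO, nearly level in all 4 libraries. Its log2 fold change was -0.06 (SE 0.21), and it was the only coding ribosomal protein gene of the 81 for which Dnmt1KO replicate 1 was not the highest library.

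Rpl5 and Rpl11 sit in the central protuberance and, when free, hold back Mdm2 and so stabilise p53. Rpl5 was at 85.6 and 85.3 CPM in Dnmt1fl/fl and at 99.3 and 84.2 CPM in Dnmt1KO, and Rpl11 at 441 and 433 CPM in Dnmt1fl/fl and at 520 and 434 CPM in Dnmt1KO. Their log2 fold changes of 0.10 and 0.13 were among the smaller ones. Rpl10, which joins late in the maturing large subunit, was at 390 and 360 CPM in Dnmt1fl/fl and at 476 and 354 CPM in Dnmt1KO, a log2 fold change of 0.15. Rpl13a was at 626 and 676 CPM in Dnmt1fl/fl and at 823 and 647 CPM in Dnmt1KO, a log2 fold change of 0.18. In each of the 4 genes Dnmt1KO replicate 1 was the highest library, and the genotypes overlapped.

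The 32 coding genes of the small subunit had log2 fold changes from 0.04 to 0.44 with a median of 0.26, and Dnmt1KO replicate 1 was the highest library in all 32. Rps28 (chromosome 17, 33819027 to 33824562) was at 97.3 and 123 CPM in Dnmt1fl/fl and at 189 and 111 CPM in Dnmt1KO, a log2 fold change of 0.44 (SE 0.33). Rps27a, made as a fusion with ubiquitin that is cut to give both products, was at 274 and 302 CPM in Dnmt1fl/fl and at 479 and 249 CPM in Dnmt1KO, a log2 fold change of 0.34. Here Dnmt1KO replicate 1 was above and Dnmt1KO replicate 2 below both controls. Rps6, the substrate of S6 kinase downstream of mTORC1, was at 542 and 610 CPM in Dnmt1fl/fl and at 902 and 535 CPM in Dnmt1KO, a log2 fold change of 0.32. Rpsa, which is also known as the laminin receptor precursor, was at 886 and 975 CPM in Dnmt1fl/fl and at 1402 and 888 CPM in Dnmt1KO, a log2 fold change of 0.30.

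Rps3, which also takes part in DNA repair and binds NF-kB, was at 629 and 647 CPM in Dnmt1fl/fl and at 875 and 600 CPM in Dnmt1KO. Rps19, a gene often mutated in Diamond-Blackfan anaemia, was at 225 and 254 CPM in Dnmt1fl/fl and at 335 and 210 CPM in Dnmt1KO. For both, one Dnmt1KO library was above and the other below the controls, and the log2 fold changes were 0.21 and 0.18. Rps27 (chromosome 3, 90212522 to 90213651) and Rps25 (chromosome 9, 44407139 to 44410427), which serves initiation at internal ribosome entry sites, differed least. Rps27 was at 283 and 291 CPM in Dnmt1fl/fl and at 318 and 272 CPM in Dnmt1KO, and Rps25 at 415 and 416 CPM in Dnmt1fl/fl and at 482 and 392 CPM in Dnmt1KO. Their log2 fold changes were 0.04 and 0.07.

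**Figure D3:**
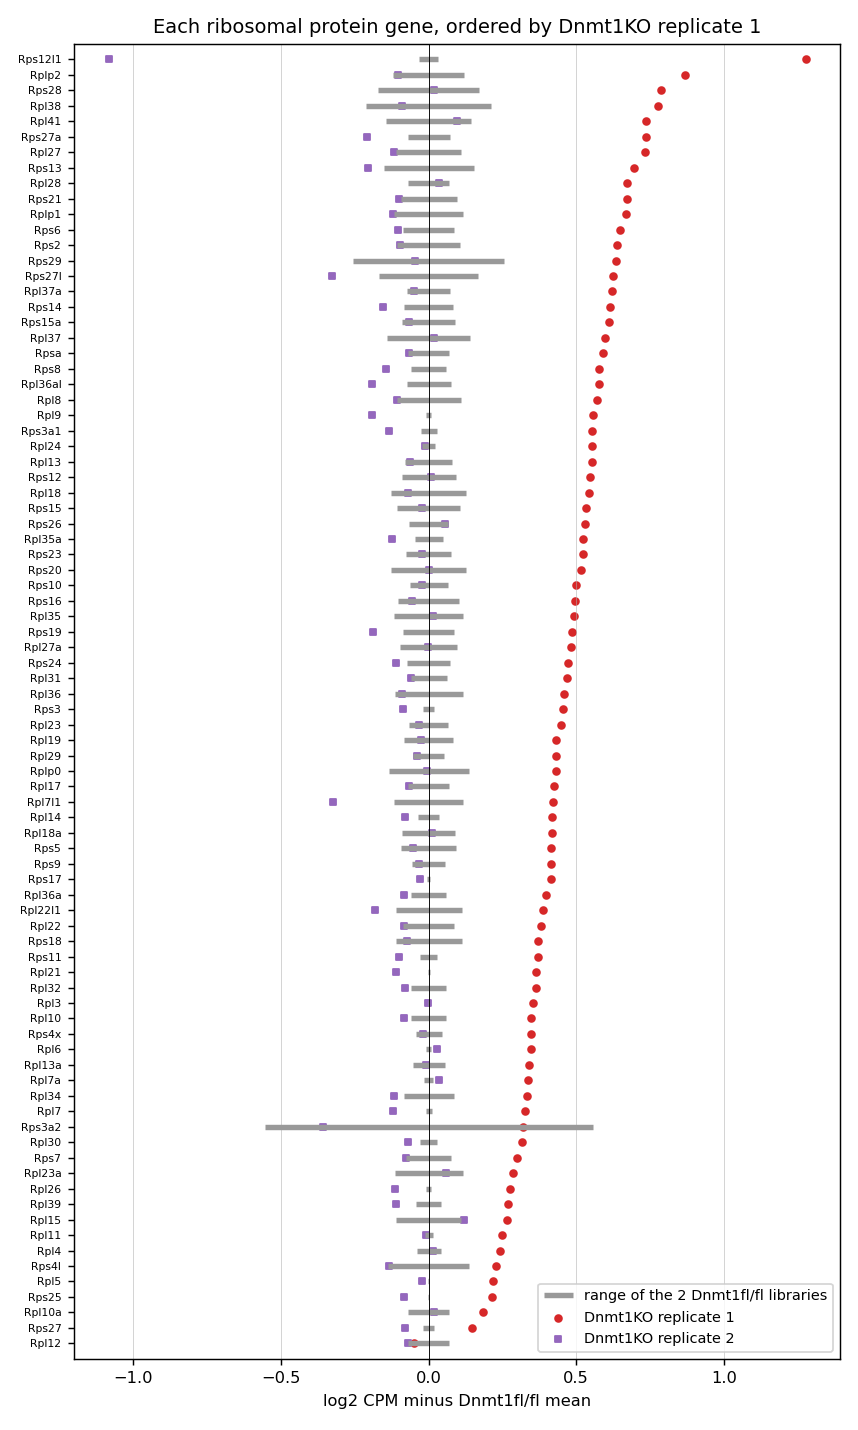
All 84 ribosomal protein genes, ordered by their level in Dnmt1KO replicate 1, as log2 CPM minus the Dnmt1fl/fl mean. Grey bars span the 2 Dnmt1fl/fl libraries, red points are Dnmt1KO replicate 1 (from -0.05 for Rpl12 to 1.28 for Rps12l1) and purple squares are Dnmt1KO replicate 2, of which 44 lie within the grey bars.

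In Dnmt1KO replicate 1 the SD of the 84 log2 deviations was 0.19, against 0.70 over all genes tested, and in Dnmt1KO replicate 2 it was 0.14, against 0.36. For the mitochondrial ribosomal protein genes the same SDs were 0.25 and 0.13. By level, 68 of the 84 were among the 1000 most abundant genes by CPM and 20 among the 200 most abundant, and the part of high counts in these SDs was not tested. Among the 81 coding genes the deviation in Dnmt1KO replicate 1 ran from -0.05 to 0.87 and in Dnmt1KO replicate 2 from -0.33 to 0.12.

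Several ribosomal proteins have a paralogue encoded by a second gene, and in the 4 pairs of coding genes measured the standard form had the higher level per length. As CPM per kilobase of transcript, averaged over the 4 libraries, Rpl22 was at 108 and Rpl22l1 at 58.4, Rps27 at 734 and Rps27l at 121, Rpl36a at 250.3 and Rpl36al at 147, and Rpl7 at 815 and Rpl7l1 at 55.9. Rpl22 was at 146 and 165 CPM in Dnmt1fl/fl and at 202 and 147 CPM in Dnmt1KO, and its paralogue Rpl22l1, which it represses, at 27.7 and 32.4 CPM in Dnmt1fl/fl and at 39.2 and 26.4 CPM in Dnmt1KO. Both were highest in Dnmt1KO replicate 1, with log2 fold changes of 0.16 and 0.13. Rps27l, a p53 target, was at 44.4 and 56.0 CPM in Dnmt1fl/fl and at 76.9 and 39.8 CPM in Dnmt1KO, a log2 fold change of 0.22 beside 0.04 for Rps27. The Dnmt1KO libraries differed by 0.95 in Rps27l and by 0.23 in Rps27 on the log2 scale.

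Rpl36al was at 109 and 121 CPM in Dnmt1fl/fl and at 171 and 101 CPM in Dnmt1KO, and Rpl36a at 109 and 118 CPM in Dnmt1fl/fl and at 150 and 107 CPM in Dnmt1KO. Their log2 fold changes were 0.24 and 0.18. Rpl7l1, which acts in ribosome assembly, was at 72.4 and 85.2 CPM in Dnmt1fl/fl and at 105 and 62.8 CPM in Dnmt1KO, and Rpl7 at 786 and 775 CPM in Dnmt1fl/fl and at 980 and 718 CPM in Dnmt1KO. For both genes Dnmt1KO replicate 1 lay above and Dnmt1KO replicate 2 below the controls. Rpl3 was at 749 and 747 CPM in Dnmt1fl/fl and at 955 and 747 CPM in Dnmt1KO, and Rpl39 at 165 and 175 CPM in Dnmt1fl/fl and at 204 and 157 CPM in Dnmt1KO. Their log2 fold changes were 0.19 and 0.09, and their paralogues Rpl3l and Rpl39l, like Rpl10l, were not analysed here.

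The 3 copies annotated as pseudogenes had low counts. Rps12l1 (chromosome 7, 56014016 to 56014414) was at 8.04 and 8.41 CPM in Dnmt1fl/fl, at 20.0 CPM in Dnmt1KO replicate 1 and at 3.86 CPM in Dnmt1KO replicate 2, so the Dnmt1KO libraries lay on opposite sides of both controls. Its log2 fold change was 0.53 (SE 0.72), the largest of the 84. Every 100-base stretch of Rps12l1 (100%) also occurs in transcripts of another gene, so its counts cannot be separated from those of the Rps12 family. Rps3a2 (chromosome 14, 88123017 to 88123808) was at 0.585 and 1.32 CPM in Dnmt1fl/fl and at 1.11 and 0.678 CPM in Dnmt1KO, with 78.6% of its stretches shared, most with Rps3a1. Its log2 fold change was -0.10 (SE 0.65), the lowest of the 84. Rps4l (chromosome 6, 148354656 to 148355598) was at 8.96 and 10.8 CPM in Dnmt1fl/fl and at 11.6 and 8.98 CPM in Dnmt1KO, a log2 fold change of 0.05, and Rps4x on chromosome X, the coding form, was at 864 and 812 CPM in Dnmt1fl/fl and at 1064 and 826 CPM in Dnmt1KO, a log2 fold change of 0.17.

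Many coding genes also share sequence with other genes. Over the 84 genes the median share of 100-base stretches found in another gene's transcripts was 23.3%, and it was above 50% in 18 genes and 0 in 5. All 4 values were whole numbers in 9 of the 84 genes (10.7%), against 64.3% of all genes in the table, and 53 genes had no whole value. The median shared stretch was 1.37% in the 9 and 33.9% in the 53. How reads that match several genes were shared out is not given in the sources used here. Genes named as ribosomal protein pseudogenes (27 in the table) held counts that came to between 4.76% and 5.82% of those of the 84 genes, with the lowest share in Dnmt1KO replicate 1. Among them, Rpl10-ps3 was at 657 and 619 CPM in Dnmt1fl/fl and at 746 and 672 CPM in Dnmt1KO, above Rpl10 in every library. Rpl10 shares 68.4% of its stretches, most with Rpl10-ps3. Rpl36a-ps2 was at 62.5 and 60.3 CPM in Dnmt1fl/fl and at 85.9 and 54.3 CPM in Dnmt1KO, below Rpl36a, which shares 83.6%. The part of shared reads in the levels given for these genes was not tested.

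Per length of transcript, levels differed widely. Most ribosomal proteins are present once per particle, but the coding genes include paralogues and Rpl7l1, which acts in ribosome assembly. As CPM per kilobase, averaged over the 4 libraries, the 81 coding genes ran from 18.0 to 1275 with a median of 555. The highest were Rplp1 at 1275 ± 359, Rpl13a at 1236 ± 159 and Rps9 at 1193 ± 191 (SD over the 4 libraries), which did not differ beyond that spread from each other or from the next genes, Rps12 at 1117 ± 234 and Rplp0 at 1114 ± 194. The lowest were Rpl12 at 18.0 ± 0.86, Rpl7l1 at 55.9 ± 12.6 and Rpl22l1 at 58.4 ± 10.8. The next gene, Rpl5 at 61.5 ± 4.99, lay within the SD of the last 2. Compared within each library, Rpl22l1 was above Rpl7l1, and the order of each against Rpl5 changed between libraries. Rps9, a small subunit protein that guards decoding accuracy, was at 838 and 904 CPM in Dnmt1fl/fl and at 1160 and 851 CPM in Dnmt1KO, a log2 fold change of 0.21. By class, the median was 487 CPM per kilobase for the large subunit, 607 for the small subunit and 1114 for the stalk. These levels rest on the mean length of the annotated coding transcripts, and with the longest transcript instead the median was 361. Rplp1 was then still the highest and Rpl12 the lowest, but Rpl13a ranked 69 and Rps9 ranked 70 of 81 from the lowest, at 662 and 696 CPM per kilobase. Of the stretches of Rpl12, 46.8% are shared with other genes, and their part in its low level was not tested.

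Transcript length moved with the difference. In Dnmt1KO replicate 1, the median deviation from the Dnmt1fl/fl mean was 0.38 in the shortest of 5 equal groups of genes tested (up to 1267 bases) and -0.32 in the longest (from 3686 bases). In Dnmt1KO replicate 2 the same medians were -0.0707 and 0.0940. Of the 84 ribosomal protein genes, 75 were in the shortest group. Other genes of the same length, 2293 genes between 494 and 1270 bases, had a median deviation of 0.38 in Dnmt1KO replicate 1 and -0.0707 in Dnmt1KO replicate 2, beside 0.46 and -0.0713 for the 84 genes. Across the 81 coding genes, which share their libraries, the correlation of the deviation in Dnmt1KO replicate 1 with log10 length was -0.19 (Spearman's rho -0.19), and across 12380 genes it was -0.29 (rho -0.38). After a correction for length in each library, the median log2 fold change of the 84 genes was 0.12, against 0.0494 over all genes. It was above 0 in 73 of the 84, in place of 82, against 58.6% of all genes, and at least 0.2 in 15, in place of 49, against 24.6% of all genes. With that correction 21 had genotypes without overlap, all higher in Dnmt1KO, against 10.99% of all genes, and 0 had an adjusted p under 0.05 in edgeR. Among the genes described here with a log2 fold change above 0, Rpl10, Rpl11, Rpl39, Rps4l and Rps25 were below 0 with the correction.

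**Figure D4:**
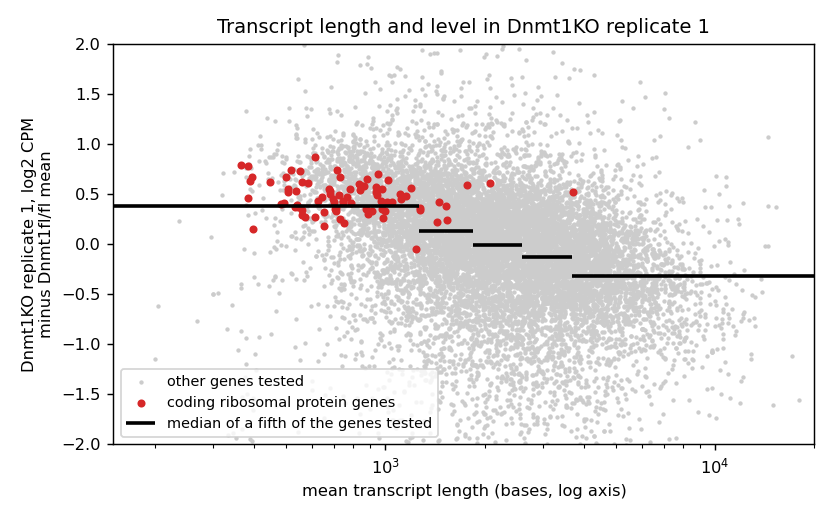
Mean transcript length in bases (log axis) against log2 CPM in Dnmt1KO replicate 1 minus the Dnmt1fl/fl mean. Grey points are other genes, red points the 81 coding ribosomal protein genes, and black lines the medians of 5 groups of equal size by length, from 0.38 in the shortest to -0.32 in the longest; points beyond the axis limits are not drawn.

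Other genes of the translation machinery were counted from lists set by name, and none of the lists below held a gene that passed the adjusted threshold. Ribosomal protein genes whose names fall outside the rule include Fau and Rack1. Fau, which encodes a ubiquitin-like protein fused to a small subunit protein, was at 490 and 542 CPM in Dnmt1fl/fl and at 762 and 508 CPM in Dnmt1KO, a log2 fold change of 0.30. Rack1, a scaffold on the small subunit, was at 806 and 899 CPM in Dnmt1fl/fl and at 956 and 832 CPM in Dnmt1KO, a log2 fold change of 0.07. Both were highest in Dnmt1KO replicate 1, with Dnmt1KO replicate 2 within the controls.

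The 78 mitochondrial ribosomal protein genes, which serve a separate ribosome, had a median log2 fold change of 0.22, with 72 above 0, from -0.11 for Mrps27 to 0.49 for Mrpl28. Their median deviation was 0.54 in Dnmt1KO replicate 1 and -0.11 in Dnmt1KO replicate 2, beside 0.46 and -0.0713 for the cytosolic genes. Of 7 genes listed by name with the elongation factors, 6 were above 0, with a median of 0.19 and values from -0.10 for Eef1e1 to 0.41 for Eif5a. Of 34 initiation factors, 22 were above 0, with a median of 0.11 and values from -0.32 for Eif4g3 to 0.37 for Eif3k. Of 25 other genes with TOP messages, 19 were above 0, with a median of 0.11 and values from -0.67 for Snhg1 to 0.38 for Vim. Their median deviation was 0.17 in Dnmt1KO replicate 1 and 0.0119 in Dnmt1KO replicate 2, and Dnmt1KO replicate 2 was above both controls in 10 of the 25. Both Dnmt1KO samples were above both controls in 7 of these 25 genes and below in 1, in 3 and 2 of the 78 mitochondrial genes, in 2 and 0 of the 7 genes of the elongation list and in 3 and 1 of the 34 initiation factors, beside 8.14% and 8.56% of all genes. The lists share genes, so their counts are not separate. Of the 7 TOP genes, Eef1a1 and Eef2 are also in the elongation list, and Eif3h and Eif2s3x in the initiation list. Npm1 is also an assembly factor below, and the TOP list holds Fau and Rack1 as well.

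Genes that build or regulate ribosomes had medians nearer to 0. Of 52 assembly factors, 28 were above 0, with a median of 0.03 and values from -0.55 for Mdn1 to 0.38 for Nhp2. The median deviation of this list was 0.18 in Dnmt1KO replicate 1 and -0.21 in Dnmt1KO replicate 2. Both Dnmt1KO samples were below both controls in 9 of the 52 and above in 2, against 8.56% and 8.14% of all genes. A log2 fold change of -0.2 or less was found in 10 and one of at least 0.2 in 6, against 19.7% and 21.8% of all genes. Of 20 genes of the RNA polymerase I machinery, 11 were above 0, with a median of 0.02 and values from -0.28 for Taf1d to 0.50 for Polr2l. In this list both Dnmt1KO samples were above both controls in 1 and below in 2, against 8.14% and 8.56% of all genes. Of 20 genes of mTORC1 and TOP control, 9 were above 0, with a median of -0.0064. Both Dnmt1KO samples were above both controls in 2 of the 20 and below in 4, against 8.14% and 8.56% of all genes. Named as the lowest and the highest log2 fold change of that list, Myc and Mxi1 are given here. Myc, which drives ribosome synthesis, was at 17.1 and 15.1 CPM in Dnmt1fl/fl and at 11.9 and 12.5 CPM in Dnmt1KO, a log2 fold change of -0.40 (SE 0.24). Mxi1, an antagonist of Myc, was at 59.9 and 55.4 CPM in Dnmt1fl/fl and at 90.3 and 63.1 CPM in Dnmt1KO, a log2 fold change of 0.41 (SE 0.26). Mnt, another antagonist, had a log2 fold change of 0.08, and Max, the partner of Myc, one of 0.14. None of these genes passed the adjusted threshold in edgeR (adjusted p = 1.00 for each).

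**Figure D5:**
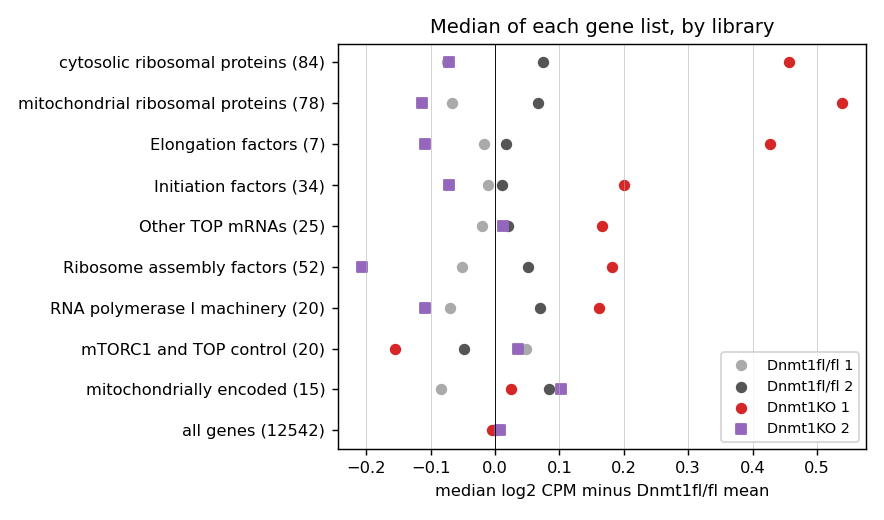
Median deviation from the Dnmt1fl/fl mean, on log2 CPM, of each gene list in each library, with the number of genes tested in parentheses. Cytosolic ribosomal proteins lie at 0.46 and mitochondrial ones at 0.54 in Dnmt1KO replicate 1, where all genes lie at -0.0042 and TOP control genes at -0.16; the grey and purple markers of the first row overlap near -0.07.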

How the data were processed

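How ribosomal RNA was removed and which annotation was counted are not given in the sources used here. The authors aligned paired-end reads of 150 bases with HISAT2 2.0.5 to mm10, per the labels, and counted them per gene with featureCounts 1.5.0-p3. The deposited values are estimated counts, not normalized and 72.6% to 76.4% whole in a library. A shorter deposited table of the same counts was not used. Members and lists were chosen with earlier results of these data known. Counts were rounded, filtered with filterByExpr, scaled with TMM and tested with the quasi-likelihood method of edgeR 4.0.16 in R 4.3.3. Genotype was the only term, and p-values of all 12542 genes were adjusted by Benjamini-Hochberg. The SE is the size of the log2 fold change divided by the square root of the F statistic. Log2 CPM used a prior count of 1. The floor of 3 counts corresponds to 0.124 to 0.148 CPM. Replicates are separate samples by label only, so p-values measure the spread between these samples. The common dispersion was 0.0837.

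Other settings tried were RLE and upper quartile scaling, TMM without the 84 genes, DESeq2 1.42.0, voom from limma 3.58.1, no filter, at least 10 counts in every sample, counts not rounded, a replicate block, a loess correction (span 0.5) for GENCODE M21 transcript length, available for 98.5% of genes, and leaving out each sample. Models were tested on simulated counts. Named genes were Dnmt1, members with known roles, paralogue pairs, the 5 largest and 5 smallest log2 fold changes, the 3 highest and 3 lowest levels per length, and the extremes of each list, of which 1 gene is not reported here. Shares and permutation tests were computed in Python 3.11.15 with SciPy 1.17.1.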

Additional observations from a re-analysis of the deposited data

How the results depend on the processing

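With 2 samples per genotype, little beyond large differences could be called, and leaving out a sample leaves 1 alone in its genotype, assumed to vary like the others. RLE and upper quartile scaling, TMM without the 84 genes, limma-voom, DESeq2, no filter, at least 10 counts in every sample and counts not rounded all gave a median log2 fold change of the 84 genes between 0.19 and 0.23, with 82 above 0 and 0 called. Over all genes, 0 were called by edgeR and 1 (Pagr1a) by DESeq2. In place of the adjusted p, a log2 fold change of at least 0.2 either way gave 49 of the 84 genes, all higher in Dnmt1KO, against 21.8% of all genes higher and 19.7% lower. The length correction gave 21 genes with genotypes without overlap in place of 3, and with the replicate block it also gave 21. Over the 84 genes it left 73 above 0 in place of 82, and among the named genes it reversed Rpl10 (-0.0073), Rpl11 (-0.0113), Rpl39 (-0.0460), Rps4l (-0.0631) and Rps25 (-0.0647), and, with the replicate block, Rpl11 (-0.0092), Rpl39 (-0.0444), Rps4l (-0.0615) and Rps25 (-0.0630).

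The labels number the samples 1 and 2 in each genotype and do not say that a number pairs them, and same-numbered samples deviated with a correlation of -0.35. The replicate block gave a median log2 fold change of 0.19 for the 84 genes and changed no call. With the pairing crossed, chosen after seeing the data, 3 genes were called over all genes and 0 of the 84.

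Leaving out 1 sample at a time, the number of genes called ranged from 0 to 1061, of ribosomal protein genes from 0 to 2 and of genes of the other lists from 0 to 22. The highest of these counts came without Dnmt1KO replicate 2, when 12754 genes were tested, among them all 84 ribosomal protein genes. The 2 of the 84 called were Rps12l1 (log2 fold change 1.28) and Rplp2 (log2 fold change 0.86), a smaller share than that called over all genes. With 1 Dnmt1KO sample left, these calls rest on the spread assumed for it and do not single out ribosomal protein genes. Genes were also called without Dnmt1fl/fl replicate 1 (2 genes) and without Dnmt1fl/fl replicate 2 (10 genes). The median log2 fold change ranged from -0.0769 without Dnmt1KO replicate 1 to 0.45 without Dnmt1KO replicate 2, and the difference in share of counts from -0.0766 to 0.748 percentage points. Genes with genotypes without overlap ranged from 8 to 82 of the 84. Without Dnmt1fl/fl replicate 1 there were 8, of which 7 were higher in Dnmt1KO and 1 lower, against 20.1% and 20.0% of all genes. Without Dnmt1fl/fl replicate 2 there were 40, with 39 higher and 1 lower, against 23.0% and 23.4%. Without Dnmt1KO replicate 1 there were 42, with 3 higher and 39 lower, against 32.4% and 32.2%. Without Dnmt1KO replicate 2 there were 82, all higher, against 41.0%, with 41.8% of all genes lower.

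Of the 48 named genes, 40 reversed when a sample was left out. On the log2 scale, genes of the large subunit and stalk ranged as Rpl10 -0.0861 to 0.34, Rpl11 -0.0104 to 0.25, Rpl12 -0.13 to 0.0095, Rpl13a -0.0119 to 0.34, Rpl22 -0.0881 to 0.38, Rpl22l1 -0.19 to 0.38, Rpl3 -0.0032 to 0.35, Rpl36a -0.0886 to 0.40, Rpl36al -0.19 to 0.58, Rpl38 -0.11 to 0.76, Rpl39 -0.11 to 0.27, Rpl5 -0.0240 to 0.22, Rpl7 -0.12 to 0.33, Rpl7l1 -0.33 to 0.42, Rplp0 -0.0153 to 0.42, Rplp1 -0.13 to 0.67 and Rplp2 -0.11 to 0.86. Genes of the small subunit ranged as Rps19 -0.19 to 0.48, Rps25 -0.0848 to 0.21, Rps27 -0.0808 to 0.15, Rps27a -0.21 to 0.73, Rps27l -0.34 to 0.61, Rps3 -0.0905 to 0.46, Rps4x -0.0230 to 0.34, Rps6 -0.11 to 0.65, Rps9 -0.0354 to 0.41 and Rpsa -0.0698 to 0.59. The copies annotated as pseudogenes ranged as Rps12l1 -1.09 to 1.28, Rps3a2 -0.56 to 0.61 and Rps4l -0.14 to 0.22. Other genes ranged as Eef1e1 -0.56 to 0.25, Eif4g3 -0.78 to 0.0315, Eif5a -0.44 to 0.94, Mdn1 -1.60 to 0.0436, Mrpl28 -0.0624 to 0.89, Mrps27 -0.29 to 0.0557, Nhp2 -0.29 to 0.83, Polr2l -0.48 to 1.08, Rack1 -0.0378 to 0.16 and Taf1d -0.92 to 0.16.

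At 20228071 to 24198943 counts per library, the 3-count floor was 0.124 to 0.148 CPM, below the level of all 84 genes.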
